A study of Drosophila melanogaster with 12 samples.

Results

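The genes described here encode the vacuolar proton ATPase (V-ATPase) of Drosophila melanogaster. They were taken as every gene named on the array whose current symbol, looked up by gene ID, begins with Vha. There were 31 of them among 10418 genes tested, each read by the probe set with the highest mean. Of 33 such genes in the RefSeq gene table, Vha68-1 and Vha68-2, which encode the catalytic A subunit, had no probe set with their name in the annotation used here. All 31 passed the filter on dim probe sets.

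Whole adult males of the wild-type strain Canton-S, 3 to 5 days old at the start, had been fed 1 of a pair of diets for 1 of a pair of times. The groups were high-sugar diet for 4 weeks, control diet for 4 weeks, high-sugar diet for 2 days and control diet for 2 days, with 3 Affymetrix arrays in each. Flies fed for 4 weeks were 31 to 33 days old at sacrifice and those fed for 2 days were 5 to 7 days old, so feeding time and age cannot be told apart. The labels call the 3 samples of a group biological replicates. The labels name no batch, so a difference in processing day between 4-week and 2-day samples could not be separated from feeding time: they cannot be told apart. In whole animals, fewer cells of a type and less RNA per cell cannot be told apart.

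The V-ATPase pumps protons across membranes with the energy of ATP. Its V1 part lies in the cytoplasm and splits ATP, and its V0 part lies in the membrane and carries the protons through a rotating ring of c subunits that runs past subunit a. The pump acidifies lysosomes, endosomes and synaptic vesicles in most cells. In insects it is also packed into the plasma membrane of epithelia such as the Malpighian tubule, the fly's kidney, where it drives fluid secretion. On the lysosome it takes part in the nutrient sensing that controls the kinase TORC1. Most subunits in the fly have several gene copies, and several of the additional copies are known for expression in the testis.

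The members were described in 3 sets. The epithelial set holds 1 gene for each subunit of the enzyme known from fluid-secreting epithelia, and 12 of its 13 genes were measured, without Vha68-2. The second copies are a chosen list of 11 further genes for subunits that the epithelial set already covers, all measured. The remaining 8 members are the accessory proteins VhaAC45 and VhaAC45RP and other paralogues, also of subunits that the epithelial set covers. The lists were set by gene name with earlier results of these data known, and no stated rule separates these paralogues from the second copies. Counts and medians by set are therefore descriptions and not tests of the sets. Probe set intensities, on the linear scale of the deposited table, ran from 2479 to 10706 over the arrays in the epithelial set and from 40.7 to 1760.2 in the second copies. Intensities of different probe sets are not set against each other.

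With high-sugar diet few V-ATPase genes passed the test: the a subunit gene Vha100-5 at 4 weeks, and Vha100-5 and the F subunit gene Vha14-1 in the average of both times. With limma and a threshold of 0.05 on the adjusted p, 1 of 31 members was lower at 4 weeks against 1.12% of all genes, and 0 were higher against 0.806% of all genes. At 2 days 0 members were lower against 0.144% of all genes and 0 were higher against 0%. At an unadjusted p under 0.05 there were 9 members at 4 weeks, against 19.9% of all genes, and 8 at 2 days (25.8% of the members), against 8.31% of all genes. In the average of both times 2 members were lower against 1.73% of all genes, and 0 were higher against 0.893%.

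Vha100-5 (gene 34587) encodes 1 of 5 versions of the membrane subunit a, which holds the channels that take protons to and from the c ring. Its intensity was 419.5, 436 and 379 on high-sugar diet for 4 weeks, against 610.3, 788 and 699 on control diet for 4 weeks. At 2 days it was 475, 362 and 475 on high-sugar diet, against 538, 675 and 609 on control diet. All 3 high-sugar arrays lay below all 3 control arrays at each time. The log2 fold change was -0.76 at 4 weeks (standard error 0.14, 95% interval -1.06 to -0.46, limma adjusted p = 0.0136), which is 0.591 times the control level. At 2 days it was -0.48 and did not pass (limma adjusted p = 0.299), and the difference between the times was -0.28 (95% interval -0.70 to 0.14, limma adjusted p = 0.741). The average over both times was -0.62 (standard error 0.10, limma adjusted p = 0.00453).

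The call of Vha100-5 at 4 weeks was lost without control array 3 of 4 weeks (limma adjusted p = 0.0513) or high-sugar array 3 of 4 weeks (0.0655). The call of its average was kept under all 23 alternatives. In the same arrays markers of the midgut moved too: 5 of 13 were lower at 4 weeks and 0 higher, against 1.12% and 0.806% of all genes. Their median log2 fold change was -0.25. Their summed intensity was 53846 to 64350 on high-sugar diet and 74667 to 85716 on control diet at 4 weeks, with no tested marker of this list at the floor. Other lists moved at 4 weeks as well. Neuron (10 of 10), photoreceptor (7 of 7) and muscle markers (10 of 10) were positive. They had 1, 1 and 0 called higher, and medians of 0.30, 0.31 and 0.17. Testis markers were negative in 25 of 26, with 0 called. Of 5 fat body markers 1 was lower and 0 higher (median -0.0088), and of 6 Malpighian tubule markers 1 was higher and 0 lower (0.16). Whether any of these tissues has a part in the value of Vha100-5 was not tested.

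Vha14-1 (gene 36731), whose F subunit is part of the central stalk that turns with the ring, was the other member called in the average. Its intensity was 4490.0, 4456 and 4126 on high-sugar diet at 4 weeks, against 4994, 4826 and 4841 on control diet at 4 weeks. At 2 days it was 4233, 4016 and 4019 on high-sugar diet, against 4609, 4735 and 4617 on control diet. The diets did not overlap at either time, but the difference was small, with a log2 value of -0.17 at 4 weeks, -0.19 at 2 days and -0.18 in the average (standard error 0.06, 0.06 and 0.04, limma adjusted p = 0.148, 0.323 and 0.0367). The call of the average was lost in 12 of 23 alternatives, among them quantile normalization (-0.11, limma adjusted p = 0.112) and leaving out any 1 of 9 arrays (adjusted p up to 0.0946).

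**Figure D1:**
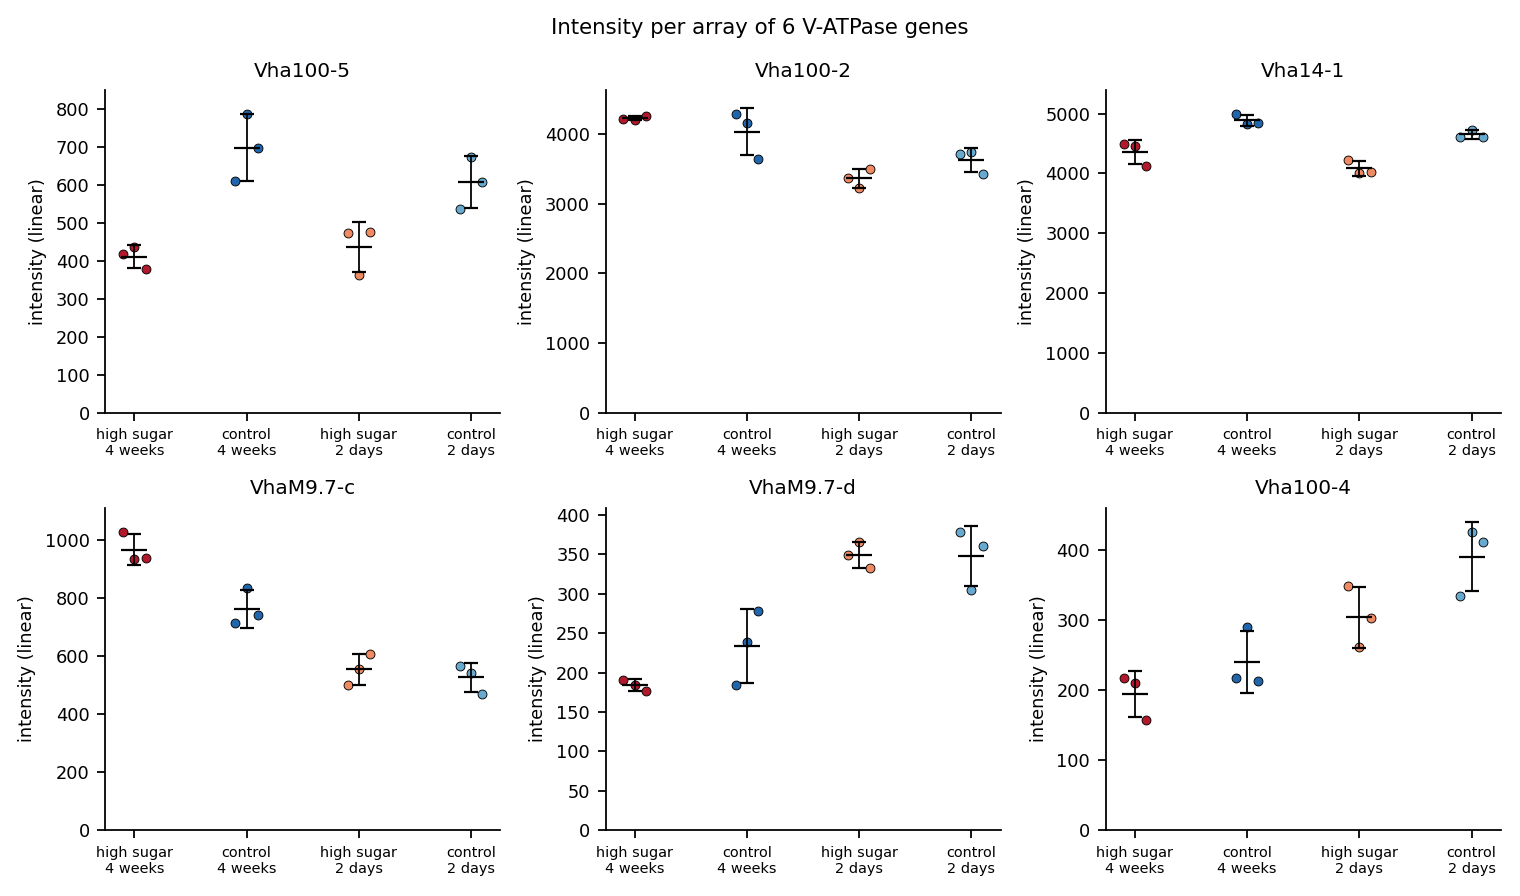
Linear intensity on each of the 12 arrays for 6 V-ATPase genes, by diet and feeding time; points are arrays, the bar is the mean and the whiskers are 1 SD of 3 arrays. Vha100-5 and Vha14-1 lie lower on high-sugar diet at both times, VhaM9.7-c is higher and VhaM9.7-d lower at 4 weeks, and Vha100-2 at 4 weeks on high-sugar diet lies above its 2-day arrays.

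In the epithelial set 0 of 12 members passed with diet at either time, and Vha14-1 was the 1 that passed in the average. At 2 days 12 of 12 members had a negative log2 fold change (9 of 12 after quantile normalization), with a median of -0.12 beside -0.0040 over all genes, and values between -0.22 and -0.03. Without any 1 array 11 or 12 of them were negative. The negative value of Vha16-1 (-0.08) came from the brighter of its pair of probe sets. Its other probe set gave 0.03 at 2 days (limma adjusted p = 0.941 in a fit of every probe set). Midgut markers were mostly negative in the same arrays, 12 of 13 at 2 days, with 0 called and a median of -0.13. Their values spread more widely, from -2.29 to 1.24. Their summed intensity was 68538 to 73881 on high-sugar diet and 74370 to 84551 on control diet. Malpighian tubule markers went the other way, with 5 of 6 positive, 0 called and a median of 0.08. Of 20 genes of epithelial ion and water transport 11 were positive and 9 negative, with 0 called and a median of 0.01. Whether any of these tissues has a part in the values of the epithelial set was not tested. The largest value of the set was that of Vha55, the B subunit that binds nucleotide beside subunit A. It had 5450.1, 5369.5 and 4983 on high-sugar diet, against 6199, 6061 and 6154 on control diet at 2 days (log2 fold change -0.22, limma adjusted p = 0.192). VhaPPA1-1, the c'' subunit of the proton ring, had 4842, 4574 and 4582 on high-sugar diet, against 5465, 5345 and 5137 on control diet at 2 days (-0.19, limma adjusted p = 0.321). In both genes the diets did not overlap at 2 days.

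Over all 31 members, 10 had non-overlapping groups at 2 days with the high-sugar arrays lower, 8 of them in the epithelial set, against 7.65% of all genes. Another 2, Vha36-3 and VhaM9.7-a, had the high-sugar arrays higher, against 6.58% of all genes. Quantile normalization left 6 such lower members, 4 of them in the epithelial set, against 6.68% of all genes. It moved the set's median to -0.04. At 4 weeks 8 members did not overlap with high sugar lower, 3 of them in the epithelial set, against 9.79% of all genes, and 2 with high sugar higher, against 13.5%. Vha16-1 was among the lower members of the epithelial set at both times by its brighter probe set. By its other probe set the diets overlapped at both times.

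At 4 weeks the epithelial set had a median log2 fold change of -0.04 with diet, with 10 of 12 negative, and of 0.01 after quantile normalization, with 4 of 12 negative. Single arrays moved this small value: the median was -0.09 without control array 3 of 4 weeks and -0.02 without control array 1 of 4 weeks. The 95% intervals of its 12 members lay between -0.29 and 0.32. Vha26, the E subunit of the peripheral stalk, had 8152, 8095 and 8039.6 on high-sugar diet and 8729, 8622 and 7094 on control diet, a log2 fold change of -0.0031. VhaSFD, the H subunit that regulates coupling of the parts, had 5515, 5666 and 5716 on high-sugar diet and 5897, 6126 and 5078 on control diet (-0.01). In both, control array 3 of 4 weeks was the lowest array of the 6 and the other control arrays were above all high-sugar arrays.

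Among the second copies no diet value passed. At 4 weeks 8 of 11 were negative, with a median of -0.20 beside 0.01 over all genes. The median was -0.08 without high-sugar array 3 of 4 weeks, -0.12 without control array 3 and -0.32 without control array 1 of 4 weeks. Testis markers had like values in these arrays, with 25 of 26 negative, 0 called and a median of -0.17, and a summed intensity of 63031 to 69948 on high-sugar diet and 70235 to 76889 on control diet. Whether testis RNA has a part in these values was not tested. Vha100-3, another a subunit, had 258, 244 and 219.8 on high-sugar diet, against 283, 347 and 346 on control diet at 4 weeks (log2 fold change -0.43, 95% interval -0.73 to -0.13, limma adjusted p = 0.127). VhaM9.7-c, a version of the small membrane subunit e, had 1030.0, 936 and 938 on high-sugar diet, against 713, 835 and 741 on control diet at 4 weeks (0.34, 95% interval 0.10 to 0.59, limma adjusted p = 0.131). The groups did not overlap for either gene at 4 weeks, and at 2 days they overlapped for both. For the difference between the diet effects at 4 weeks and at 2 days 0 members passed (0% of all genes in each direction), with 0 members at an unadjusted p under 0.05, against 7.27% of all genes, and a smallest adjusted p of 0.677.

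**Figure D2:**
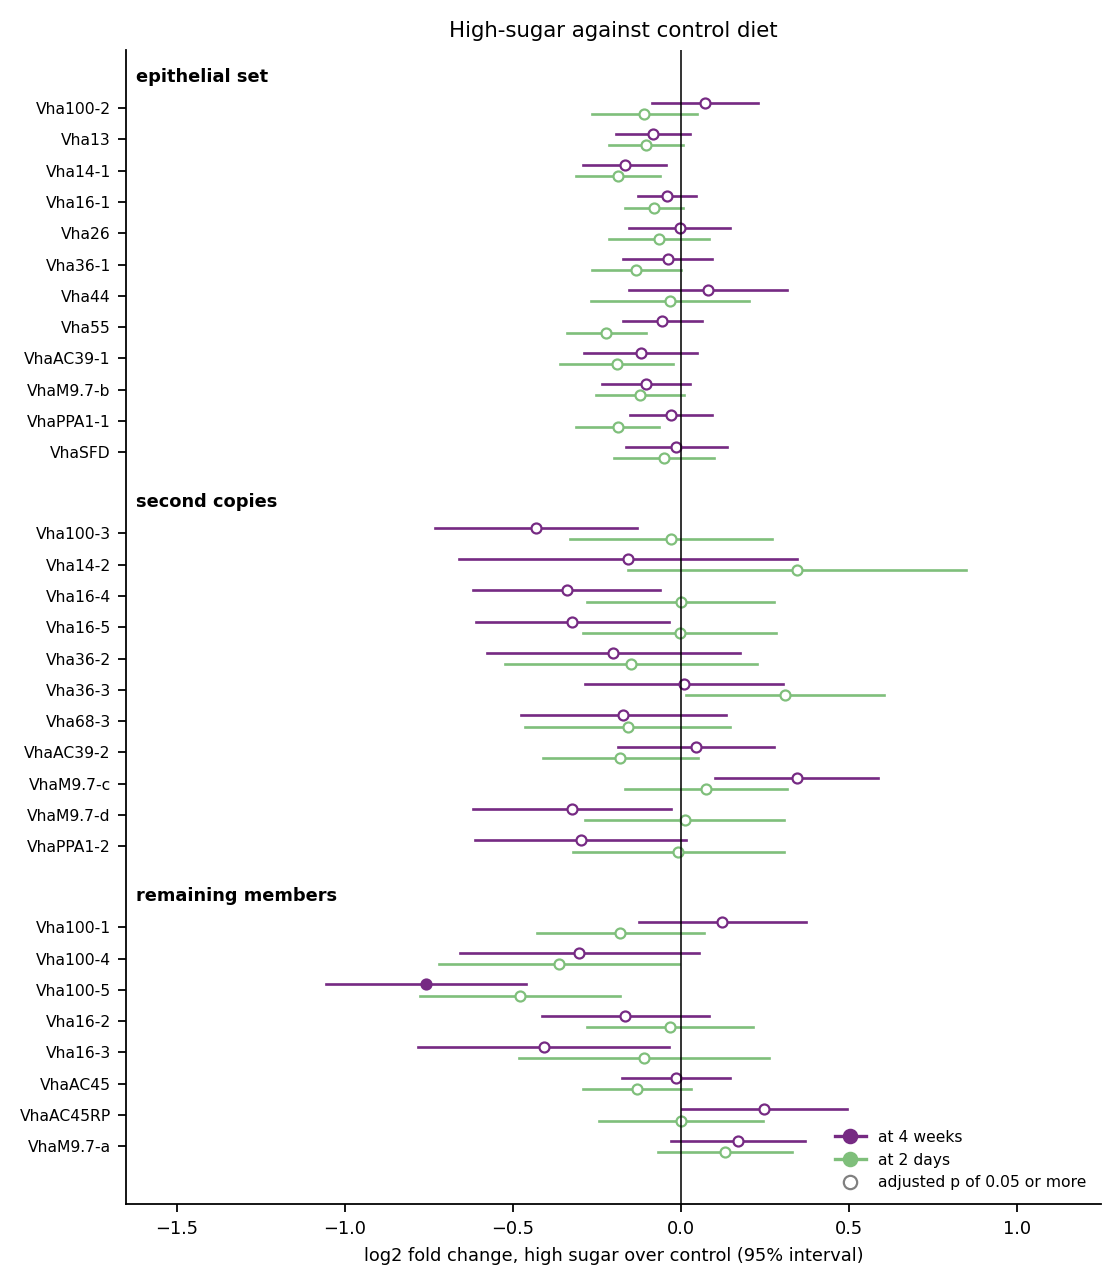
Log2 fold change of high-sugar over control diet at 4 weeks (purple) and 2 days (green) for the 31 members, by set; points are limma estimates from 3 arrays a group, lines are 95% intervals and open points have an adjusted p of 0.05 or more. Vha100-5 at 4 weeks is the only filled point, and all 12 estimates of the epithelial set at 2 days lie left of 0 (9 of 12 after quantile normalization).

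Feeding time went with more calls than diet over all genes as well as among the members, and the members called lay mostly outside the epithelial set. On high-sugar diet 14 of 31 members (45.2%) were lower at 4 weeks than at 2 days, against 22.7% of all genes. Another 2 (6.45%) were higher, against 19.9%. On control diet 8 members (25.8%) were lower, against 18.8% of all genes, and 1 (3.23%) was higher, against 14.3%. Quantile normalization gave 11 lower and 4 higher on high-sugar diet, against 2289 and 2452 of 10417 genes. On control diet it gave 7 lower and 2 higher, against 1830 and 1894 of 10417 genes. Groups did not overlap, with 4 weeks lower, for 16 members on high-sugar diet against 26.5% of all genes and for 11 on control diet against 25.1%. With 4 weeks higher they were 8 on high-sugar diet against 28.6% and 2 on control diet against 20.3%. The 9 members called on control diet were also called in the same direction on high-sugar diet, and 7 were called on high-sugar diet alone. For none of these 7 was the difference between the diets itself past the threshold, since that test is the difference reported above with 0 members called.

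In the V1 part 0 of the 7 genes of the epithelial set passed on either diet. Over the epithelial set as a whole the median log2 fold change was 0.09 on high-sugar diet and -0.0044 on control diet, beside 0.03 and -0.01 over all genes. Quantile normalization gave 0.10 and 0.08, beside 0.06 and 0.03 over all genes. It called 3 and 1 of the 12 higher and 0 lower, against 2452 and 1894 of 10417 genes higher and 2289 and 1830 lower. Vha55 had 5710.0, 5695 and 5881 at 4 weeks, against 5450.1, 5369.5 and 4983 at 2 days, on high-sugar diet (0.13, limma adjusted p = 0.0698). On control diet it had 6128, 6122 and 5725 at 4 weeks and 6199, 6061 and 6154 at 2 days (-0.04). Vha13 (subunit G) and Vha26 (subunit E), which form the peripheral stalk, Vha44 (subunit C), Vha36-1 (subunit D of the central stalk), Vha14-1 and VhaSFD did not pass on either diet, with values from -0.14 to 0.17.

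Of the 4 second copies of V1 subunits, 4 were lower with time on high-sugar diet and 2, Vha36-2 and Vha68-3, on control diet. Vha36-2 (gene 36328), a paralogue of the central stalk subunit D, had 269.8, 205 and 150.0 at 4 weeks, against 387, 342 and 339 at 2 days, on high-sugar diet. On control diet it had 249, 228 and 222 at 4 weeks, against 413, 337 and 438 at 2 days. The times did not overlap on either diet, and the log2 fold changes were -0.81 and -0.76 (standard error 0.17 each, limma adjusted p = 0.00283 and 0.00632). Vha68-3 (gene 34695), a paralogue of the catalytic A subunit and the only A subunit gene measured, had 1308, 906 and 903 at 4 weeks, against 1682, 1557 and 1332 at 2 days, on high-sugar diet. On control diet it had 1147, 1076 and 1236 at 4 weeks, against 1760.2, 1567 and 1755 at 2 days. The times did not overlap on either diet, with log2 fold changes of -0.57 and -0.56 (standard error 0.14 each, limma adjusted p = 0.00646 and 0.0104). Vha14-2, a paralogue of subunit F, was lower with time on high-sugar diet (-0.80, standard error 0.23, limma adjusted p = 0.0150), with widely spread arrays of 147, 250.0 and 125 at 4 weeks, against 281, 345 and 249.6 at 2 days. On control diet its value was -0.30 (limma adjusted p = 0.341). Vha36-3, another D paralogue, had 204, 209.6 and 223 at 4 weeks, against 257, 307 and 269 at 2 days, on high-sugar diet, without overlap (-0.38, standard error 0.14, limma adjusted p = 0.0372). On control diet its arrays overlapped and its value was -0.08 (limma adjusted p = 0.662).

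The call of Vha14-2 was lost without high-sugar array 2 of 2 days (limma adjusted p = 0.0661), or without high-sugar array 1 or 3 of 4 weeks (0.0514 and 0.0709). That of Vha36-3 was lost without any 1 of 5 of the 6 high-sugar arrays, all but array 1 of 2 days (adjusted p up to 0.137), and with quantile normalization (0.0649), no filter (0.0581) and the replicate number as a block (0.0501).

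The 5 genes for the a subunit differed from each other with time. Vha100-2 (gene 42216), the a subunit of the epithelial set, had 4211, 4204 and 4262 at 4 weeks, against 3366, 3226 and 3497 at 2 days, on high-sugar diet. The log2 fold change was 0.33 (standard error 0.07, limma adjusted p = 0.00328), against 0.15 on control diet (limma adjusted p = 0.127). Vha100-4 (gene 42214), known from the acid-secreting copper cells of the midgut, had 218, 210.0 and 157 at 4 weeks, against 349, 262 and 303 at 2 days, on high-sugar diet. On control diet it had 217, 291 and 213 at 4 weeks, against 335, 427 and 412 at 2 days. Its log2 fold changes were -0.65 and -0.71 (standard error 0.17 each, limma adjusted p = 0.00737 and 0.00674), without overlap of the times on either diet. In the RefSeq gene table Vha100-4 and Vha100-2 are neighbours with 0 protein-coding genes between them. Of the copper cell markers, Ptx1 and dve were tested, 0 passed in any contrast, and neither was at the floor on any array by the probe set used. Another probe set of dve, not used, was at or under the floor on 5 arrays.

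Vha100-3 was lower with time on high-sugar diet (-0.57, standard error 0.14, limma adjusted p = 0.00568), with arrays of 258, 244 and 219.8 at 4 weeks, against 427, 360.3 and 296 at 2 days. On control diet its value was -0.17 (limma adjusted p = 0.361). Vha100-1, the a subunit known for its role at synapses, did not pass on either diet (0.20 and -0.10). Vha100-5, the member lower with diet, had log2 fold changes with time of -0.08 on high-sugar diet and 0.20 on control diet, neither past the threshold.

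The c subunits form the ring that carries the protons. Vha16-1 (gene 44307), the c subunit of the epithelial set, was read by a pair of probe sets that disagreed. The brighter one had 8707, 8657 and 8819 at 4 weeks, against 10237, 9762 and 10009 at 2 days, on high-sugar diet, and 9182, 8934 and 8830.0 at 4 weeks, against 10595, 10425 and 10706 at 2 days, on control diet. It gave log2 fold changes of -0.20 and -0.24 (standard error 0.04 each, limma adjusted p = 0.00212 and 0.00117). The other probe set gave -0.06 and 0.05 (standard error 0.06 each, limma adjusted p = 0.450 and 0.565 in a fit of every probe set). Its arrays overlapped between the times on control diet, while on high-sugar diet those at 4 weeks (7845, 7672 and 7734) lay below those at 2 days (8068, 8039.8 and 8094). Quantile normalization ended both calls of the brighter one (-0.03 and -0.08, limma adjusted p = 0.580 and 0.162), and the mean of both probe sets ended the call on control diet (adjusted p = 0.129).

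**Figure D3:**
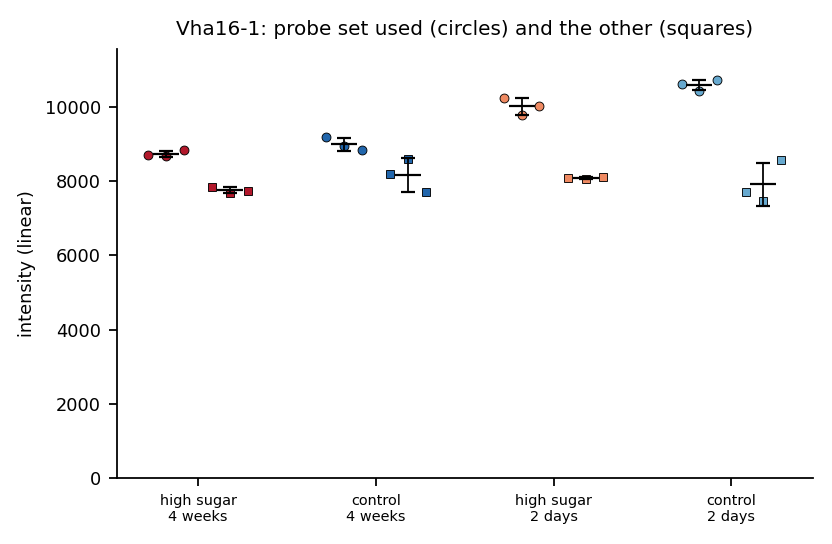
Linear intensity of the pair of probe sets of Vha16-1 on the 12 arrays, with the mean and 1 SD of 3 arrays. The probe set used (circles) lies lower at 4 weeks than at 2 days on both diets, while the other one (squares) separates them on high-sugar diet and not on control diet.

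Among the other c subunit genes Vha16-4, a second copy, had 42.7, 40.7 and 49.7 at 4 weeks, against 69.4, 80.4 and 63.9 at 2 days, on high-sugar diet (log2 fold change -0.68, standard error 0.13, limma adjusted p = 0.00133). On control diet it had 50.2, 58.7 and 59.5 at 4 weeks, against 72.8, 67.1 and 72.9 at 2 days (-0.34, limma adjusted p = 0.0571). All arrays of Vha16-4 lay under the lowest array median of all probe sets, 86.97. Its call on high-sugar diet was kept in the 23 alternatives in which it was tested. Vha16-2 had 82.1, 86.7 and 83.6 at 4 weeks, against 133, 128 and 104 at 2 days, on high-sugar diet, and 85.2, 97.3 and 101 at 4 weeks, against 114, 128 and 129.5 at 2 days, on control diet. It was lower on both, without overlap (-0.53 and -0.39, standard error 0.11 each, limma adjusted p = 0.00307 and 0.0198). Its neighbour Vha16-3, with 0 protein-coding genes between them, did not pass (-0.42 and -0.13, limma adjusted p = 0.0634 and 0.595). Vha16-5 had 117, 113 and 133 at 4 weeks, against 169.6, 169 and 165 at 2 days, on high-sugar diet, with no overlap (-0.48, standard error 0.13, limma adjusted p = 0.0115). On control diet its value was -0.16 (limma adjusted p = 0.369). Of the c'' subunits, VhaPPA1-2 had 117, 107 and 129 at 4 weeks, against 193, 176 and 154 at 2 days, on high-sugar diet, with no overlap (-0.56, standard error 0.15, limma adjusted p = 0.00793). On control diet its value was -0.27 (limma adjusted p = 0.163), and VhaPPA1-1 did not pass on either diet (0.07 and -0.09). The call of Vha16-2 on control diet was lost without control array 2 or 3 of 2 days or control array 1 of 4 weeks (adjusted p up to 0.0843).

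On high-sugar diet the small subunit e gave the largest changes with time among the members, in both directions. VhaM9.7-d (gene 42041) had 191, 185 and 176 at 4 weeks, against 349.7, 365 and 333 at 2 days, on high-sugar diet, and 184, 239 and 278 at 4 weeks, against 379, 305 and 360.1 at 2 days, on control diet. The times did not overlap on either diet. The log2 fold changes were -0.92 and -0.59 (standard error 0.14 each, limma adjusted p = 0.000314 and 0.00663). VhaM9.7-c (gene 38503) went the other way, with 1030.0, 936 and 938 at 4 weeks, against 499, 557 and 608 at 2 days, on high-sugar diet. On control diet it had 713, 835 and 741 at 4 weeks, against 568, 543 and 469 at 2 days. Its log2 fold changes were 0.81 and 0.54 (standard error 0.11 each, limma adjusted p = 0.000223 and 0.00382), and it was the only second copy that was higher with time.

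VhaM9.7-a, a further e subunit, was lower on both diets, with 544, 502 and 517 at 4 weeks, against 679, 797 and 702 at 2 days, on high-sugar diet, and 478, 449 and 462 at 4 weeks, against 660.3, 675 and 649.5 at 2 days, on control diet (-0.48 and -0.52, standard error 0.09 each, limma adjusted p = 0.00151 and 0.00158). VhaM9.7-b, the e subunit of the epithelial set, did not pass (0.09 and 0.07). The d subunits, which join the stalk to the ring, did not pass either, with 0.15 and 0.08 for VhaAC39-1 and -0.04 and -0.26 for VhaAC39-2. The calls of VhaM9.7-a, VhaM9.7-c and VhaM9.7-d were kept under all 24 alternatives on both diets.

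Of the accessory proteins, VhaAC45, which helps assembly and trafficking of the pump, did not pass (0.09 and -0.02). VhaAC45RP, its related protein, had 578, 611 and 622 at 4 weeks, against 756, 800.4 and 712 at 2 days, on high-sugar diet, and 497, 454 and 581 at 4 weeks, against 798, 802 and 672 at 2 days, on control diet. It was lower on both (-0.32 and -0.57, standard error 0.11 each, limma adjusted p = 0.0345 and 0.00284). Its call on high-sugar diet was lost without any 1 of 5 of the 6 high-sugar arrays, all but array 3 of 2 days (adjusted p up to 0.116), with quantile normalization (0.0577) and with the replicate block (0.0580).

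**Figure D4:**
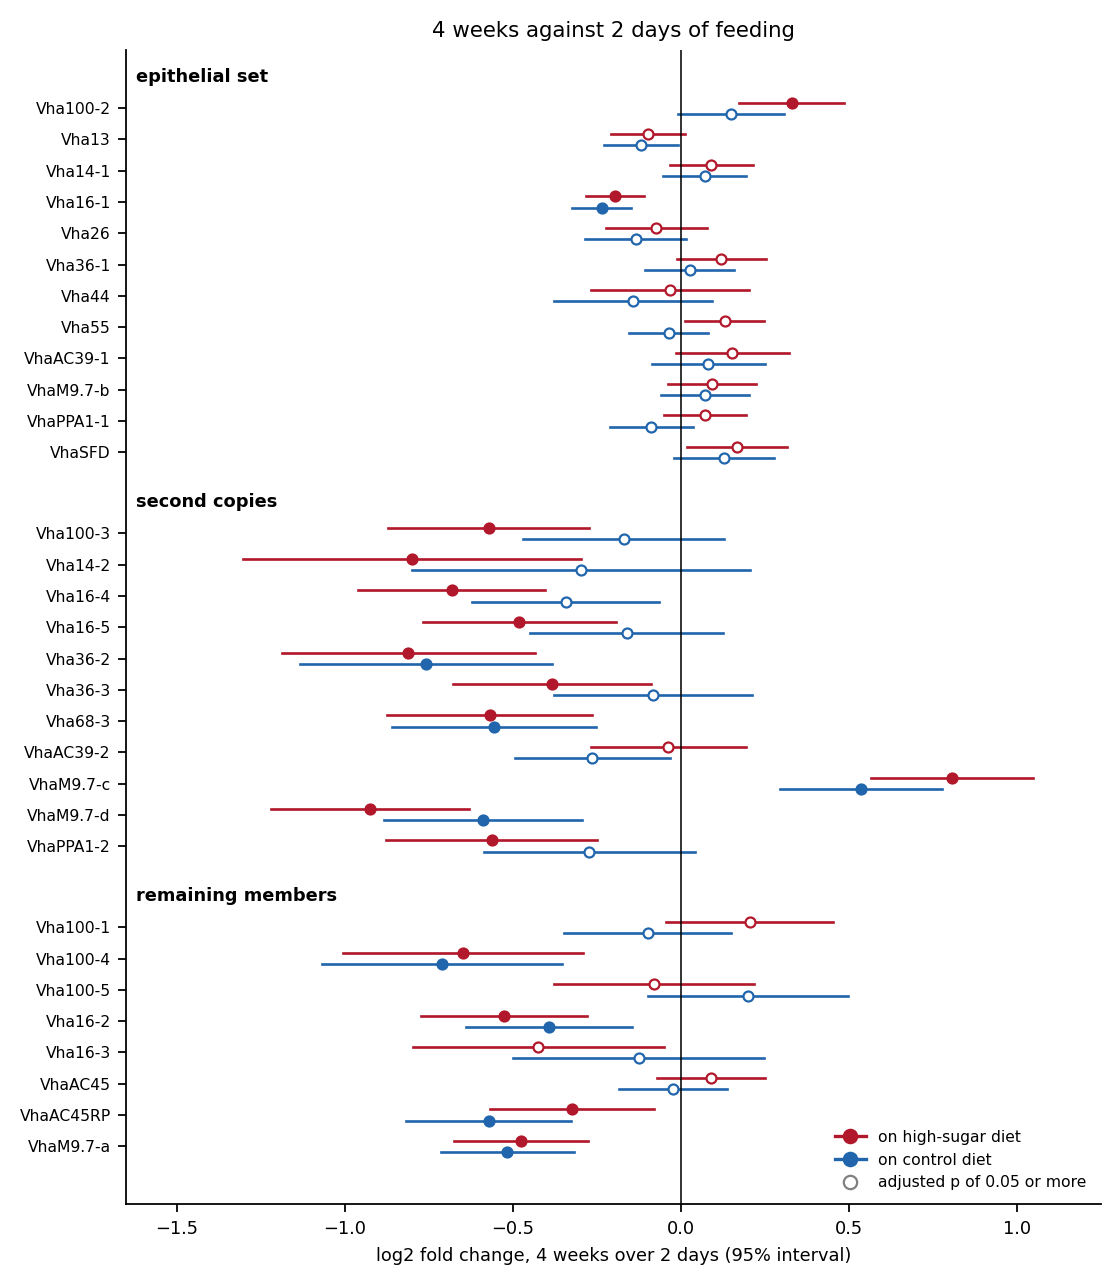
Log2 fold change of 4 weeks over 2 days of feeding on high-sugar (red) and control diet (blue) for the 31 members, by set; points are limma estimates from 3 arrays a group, lines are 95% intervals and open points have an adjusted p of 0.05 or more. Estimates of the epithelial set lie between -0.24 and 0.33, while 10 of 11 second copies lie left of 0 on each diet and VhaM9.7-c lies right of it.

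By sets, 9 of 11 second copies were lower and 1 higher with time on high-sugar diet, and 3 were lower and 1 higher on control diet, with medians of -0.57 and -0.27. Without control array 1 of 4 weeks the median on control diet was -0.15. In the epithelial set 1 of 12 was lower and 1 higher on high-sugar diet, and 1 lower and 0 higher on control diet. Of the remaining 8 members 4 were lower on each diet and 0 higher. Over all genes 22.7% were lower and 19.9% higher on high-sugar diet, and 18.8% and 14.3% on control diet. Many markers of several cell types were lower with time too. Of 26 testis genes 20 were lower and 0 higher with time on high-sugar diet, and 18 were lower and 1 higher on control diet, with medians of -0.46 and -0.36. Their summed intensity was 63031 to 69948 at 4 weeks and 85212 to 96079 at 2 days on high-sugar diet, and 70235 to 76889 at 4 weeks and 92321 to 98424 at 2 days on control diet. No tested testis marker stood at the floor by the probe set used. Of 10 muscle markers 9 were lower on high-sugar diet and 10 on control diet, with medians of -0.60 and -0.83 and 0 higher. Of 10 neuron markers 2 and 7 were lower (medians -0.18 and -0.47), and of 7 photoreceptor markers 4 and 5 were lower (medians -0.31 and -0.51), with 0 higher in both lists. Other lists were mixed. Of 13 midgut markers 6 and 2 were lower and 0 higher (medians -0.42 and 0.04). Of 6 Malpighian tubule markers 1 was lower on each diet and 1 higher on high-sugar diet (medians -0.07 and 0.08). Of 5 fat body markers 2 and 1 were higher and 1 and 0 lower (medians 0.50 and -0.11). The higher call on control diet and 1 of the 2 on high-sugar diet were those of Yp1 (2.57 and 2.03). Yp1 was at or under the floor on 4 of the 12 arrays, with a mean intensity of 39.4. Whether RNA of any of these cell types has a part in the values of the second copies was not tested.

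**Figure D5:**
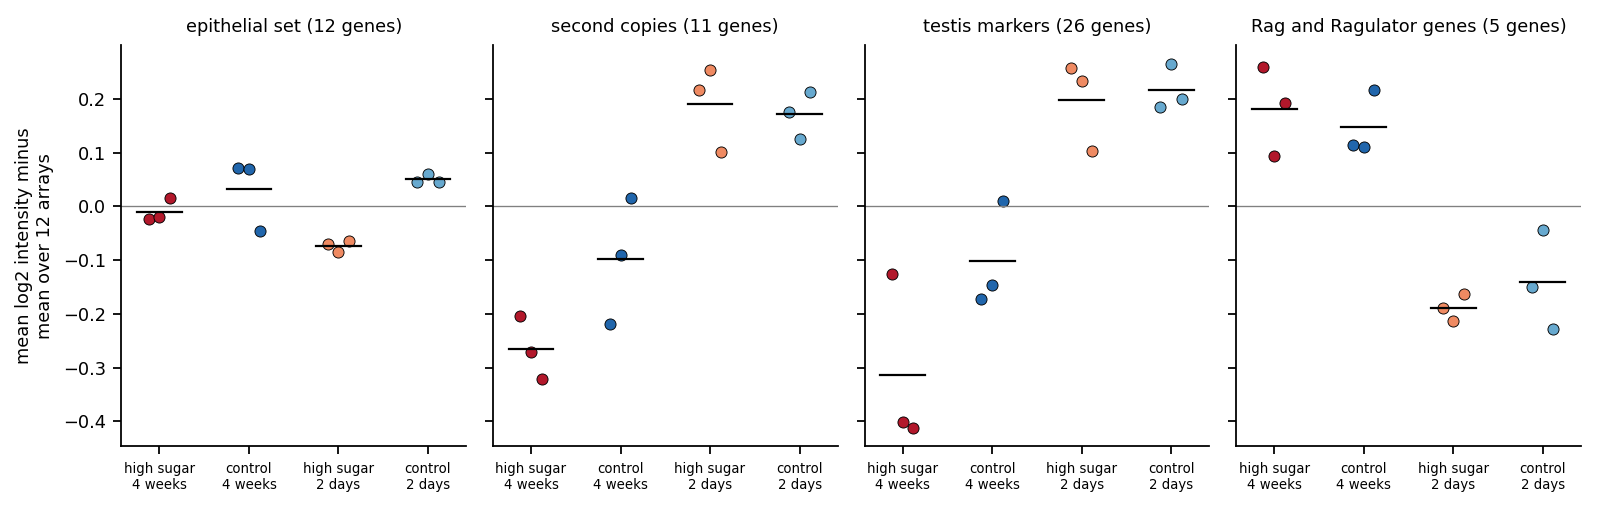
Mean log2 intensity per array, as the difference from each gene's mean over the 12 arrays, for 12 epithelial set genes, 11 second copies, 26 testis markers and 5 Rag and Ragulator genes; points are arrays and bars are means of 3. The epithelial set lies between -0.08 and -0.06 on high-sugar diet and between 0.05 and 0.06 on control diet at 2 days, without overlap, and its diets overlap at 4 weeks; second copies and testis markers lie lower at 4 weeks, and Rag and Ragulator genes lie higher.

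Genes that work with the pump on the lysosome were set beside it. Of 5 genes of the Rag GTPases and Ragulator, the complex that the V-ATPase contacts when amino acids are sensed, 5 were higher with time on high-sugar diet and 3 on control diet, with 0 lower and medians of 0.34 and 0.32. Over all genes 19.9% were higher with time on high-sugar diet and 14.3% on control diet. Lamtor5 was higher by 0.59 and 0.50 (limma adjusted p = 0.00133 and 0.00584) and Lamtor3 by 0.34 and 0.35 (0.00988 and 0.0121). Mitf, a transcription factor known to switch on V-ATPase and lysosome genes in the fly, was higher by 0.83 on high-sugar diet and 0.69 on control diet (limma adjusted p = 0.00405 and 0.0155). The control call was lost without control array 1 of 2 days (adjusted p = 0.0565), without control array 1 of 4 weeks (0.0733) and with only the arrays compared (0.0523). Mitf was 1 of 4 genes measured for V-ATPase assembly and regulation, of which 2 were higher on high-sugar diet and 1 on control diet. The other, mtd, was higher by 0.29 on high-sugar diet (adjusted p = 0.0407), a call lost without any 1 of 5 arrays and with other settings, and its sign turned with the mean of all its probe sets (-0.0093).

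Of 16 lysosome genes 6 were higher and 1 lower with time on high-sugar diet, and 5 were higher and 0 lower on control diet, with medians of 0.12 and 0.14. Over all genes 19.9% were higher and 22.7% lower on high-sugar diet, and 14.3% and 18.8% on control diet. The lysosomal mannosidase gene LManII was higher on both (0.52 and 0.68), as were ClC-b, of the chloride channel family (0.60 and 0.56), and the thioesterase gene Ppt2 (0.45 and 0.48). The hexosaminidase gene Hexo2 was lower on high-sugar diet (-0.50). With diet 0 genes of these lists passed at either time, and in the average the lysosomal transporter gene spin was higher (0.31, limma adjusted p = 0.0386), a call lost in 12 of 23 alternatives.

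Of 20 genes of epithelial ion and water transport, 3 were higher and 3 lower with time on high-sugar diet, and 1 was higher and 4 lower on control diet. These counts are near or under the shares of all genes, 19.9% higher and 22.7% lower on high-sugar diet, and 14.3% and 18.8% on control diet. The sodium and proton exchanger gene Nha2 was higher on both diets (0.54 and 0.44), and nrv3, a beta subunit of the sodium pump, was lower on both (-0.84 and -1.23). Of the other nrv genes in the list, nrv1 was higher on high-sugar diet (0.31, limma adjusted p = 0.00375) and nrv2 lower on control diet (-0.66, limma adjusted p = 0.000662). NKCC was lower on both diets (-0.44 and -0.40). With diet the aquaporin gene Prip was the only one that passed, lower by high sugar at 4 weeks (-0.52, limma adjusted p = 0.0170) and in the average (-0.50, limma adjusted p = 0.00212). The call at 4 weeks was lost without control array 3 or high-sugar array 2 of 4 weeks (adjusted p up to 0.0886) and with only the arrays compared (0.0589). Of 6 Malpighian tubule markers measured, the alkaline phosphatase gene Alp4 was higher on high-sugar diet at 4 weeks (0.48, limma adjusted p = 0.0294), a call lost in 8 of 24 alternatives, 5 of them without 1 of the 4-week arrays.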

How the data were processed

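Affymetrix arrays of whole adult males were analysed, 12 in all, in 4 groups of diet and time with 3 arrays each. The authors made and normalized the probe set values with the match and mismatch model of dChip, version 2006, per the series text. Deposited values are linear intensity, from 1 to 16579.5, with array medians of 86.97 to 93.42. Detection calls and the genome build are not given in the sources used here. Values under the pooled 20th percentile (11.78) were set to it and log2 transformed by this work; log2 values are not the authors' deposited unit. Left out were 100 control probe sets, the 30% with the lowest mean (under log2 4.30), and probe sets naming several genes or none. Of 13647 probe sets with 1 gene symbol, in an annotation of the platform, 13544 matched the RefSeq gene table by gene ID.

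Means of the 4 groups were estimated for 10418 genes with limma 3.58.1 in R 4.3.3 (moderated with an intensity trend; degrees of freedom were 8 residual and 5 prior), with 6 contrasts and Benjamini-Hochberg adjustment over genes within a contrast at 0.05. Arrays number 3 a group, which limits the precision: the median standard error of a difference was 0.11 (log2) over the members and 0.13 over all genes. An exact test of 3 against 3 arrays cannot give a p below 0.1 and was not run. Log2 fold change, standard error and adjusted p were given for members in the contrasts where they passed the threshold. Per companion list, up to 2 higher and 2 lower called genes of a contrast were chosen by the smallest adjusted p. These were given with a log2 fold change, some with the adjusted p, and without a standard error. Other members were named for their subunit. The members and lists were chosen with earlier results of these data known. The fit was tested on simulated data. Across genes, arrays within 1 group correlated at a Pearson's r of 0.984 to 0.993. Figures were drawn with Python 3.11.15 and matplotlib 3.10.9. Promoter sequence was not used here. Alternatives are in the closing section.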

Additional observations from a re-analysis of the deposited data

How the results depend on the processing

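Calls among the members were counted again with each array left out, and after changing 1 choice at a time: the scaling (quantile, or array medians), the floor (10th or 30th percentile), the dim-probe filter (none, or 50%), the moderation (no trend, or robust), a replicate block, the arrays entering (those compared only), and the probe sets (their mean, or each by itself, the last chosen after seeing the data, as were set medians without each array). In the average of the diet effects over both times the count of 2 became 1 with quantile normalization, without a trend and with the replicate block, and was 1 to 2 without 1 array. With diet at 4 weeks it was 1 under every setting except 2 arrays left out, with a range of 0 to 1, and with diet at 2 days and for the difference it was 0 throughout. With time it was 14 to 17 on high-sugar and 8 to 10 on control diet, and 13 to 18 and 8 to 12 without 1 array. Of 28 calls of single members 20 were kept under every alternative in which the member was tested, 8 were lost in some and 0 changed sign. Among companion genes the sign of mtd turned (-0.0093, mean of all probe sets); the cause was not tested. Same-numbered arrays deviated together in few cases (4 of 18 correlations over 0.1, range -0.228 to 0.147), and the main fit did not pair samples by number. Such correlations cannot tell whether same-numbered samples were handled together. The block changed no count of calls by more than 1.5 times except that of the average. With 3 arrays a group and no detection calls, signal over background was not assessed.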
